A study of Mus musculus with 12 samples.

Results

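Integrins are the receptors by which cells hold on to the matrix and to one another, and laminins are the basement membrane proteins on which epithelium rests. The genes of both families were followed across 12 Affymetrix mouse arrays of colon epithelial cells, as the samples were labelled. They were chosen by symbol: all genes of the array annotation whose symbol starts with Itga or Itgb, without Itgb1bp1, Itgb1bp2, Itgb3bp, Itgbl1 and Itgb2l, and the laminin chains of the form Lama, Lamb or Lamc with a digit. This gave 36 of the 19935 genes measured, namely 18 integrin α chains, 8 integrin β chains and 10 laminin chains. A single probe set stood for each of 35 genes, and Itgad was the mean of 2.

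The study set Villin-Claudin-2 transgenic mice (Cl-2TG, here TG) beside wild-type littermates (WT), all male and 8 to 10 weeks old. Each genotype received either dextran sulfate sodium (DSS) at 4% in the drinking water or plain water for 10 days. There were 3 arrays in each of the groups TG DSS, WT DSS, TG water and WT water. DSS is a sulfated polymer that injures the colon lining. Claudin-2 is a tight junction protein, and villin, for which the transgene is named, is a protein of the epithelial brush border whose promoter drives expression in gut epithelium. The labels do not say whether each array is its own animal, so the p-values rest on a spread between arrays that may be partly technical.

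Each integrin joins an α to a β chain, and the pair sets what the receptor binds. The Itga6 and Itgb4 products form the receptor of the hemidesmosome, the rivet between the basal epithelial surface and the laminin beneath it. The Itgb2 product pairs with the Itgal, Itgam, Itgax and Itgad products on leukocytes, the Itgb6 product pairs with the Itgav product on epithelium and activates latent TGF-β, and the Itgae and Itgb7 products together hold T cells to epithelial E-cadherin. A laminin is a trimer of an α, a β and a γ chain. The Lama3 and Lamb3 products are chains of the epithelial anchor laminin that binds the hemidesmosome, whereas trimers with the Lamb1 and Lamc1 products are found in basement membranes of many tissues, with Lama5 typical of epithelium and vessels and Lama4 of vessels, fat and muscle.

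Each probe set had been centred on its median across the 12 arrays, so the log2 values compare arrays and hold no absolute level. Values of a group are given for replicates 1, 2 and 3 in that order. WT DSS replicate 2 stood apart, with 3795 of 28815 probe sets more than 1 log2 unit from their median, against 677 and 1035 in WT DSS replicates 1 and 3, 53 to 285 in the TG DSS arrays and 22 to 91 in the water arrays. The transgene's own gene, Cldn2, had values of -0.24, 0.27 and 0.15 in TG DSS and -0.53, -2.28 and -0.12 in WT DSS, and 0.36, 0.18 and -0.02 in TG water and -0.04, 0.02 and 0.11 in WT water, and the TG minus WT difference was 1.04 ± 0.44 under DSS and 0.14 ± 0.44 at water (limma adjusted p = 0.292 and 1). It therefore does not separate the genotypes and checks the labels weakly. The median of 17 pan-epithelial markers was -0.17, 0.09 and 0.02 in TG DSS and -0.11, -2.08 and 0.05 in WT DSS, and between -0.07 and 0.11 in the water arrays. Which markers are at 0, and whether epithelial markers are abundant, cannot be read from centred values.

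The same array dominated the integrin and laminin genes, and it split them into opposite sets. WT DSS replicate 2 held the highest value of the 12 arrays for 22 of the 36 genes and the lowest for 6, whereas over all 19935 genes it was the highest for 22.0% and the lowest for 27.6%. Together these are 28 of 36 genes, against 49.6% of all genes. In that array 23 of the 36 genes lay more than 1 log2 unit from their median, against 16.2% of all genes. Of the 36, 19 lay more than 1 unit above their median and 4 more than 1 below, and over all genes these shares were 9.45% and 6.78%. The 6 genes at their lowest were Itga3, Itga6, Itgb4, Itgb6, Lama3 and Lamb3. They encode some of the chains of the epithelial laminin receptors, of the epithelial TGF-β activator and of the epithelial anchor laminin. Itgb1, the partner of Itga3, and Itgav, the partner of Itgb6, were at their highest in that array instead, at 1.18 and 1.77. The 22 at their highest also held the leukocyte chains Itgal, Itgam, Itgax and Itgb2 and the general laminin chains Lama4, Lama5, Lamb1 and Lamc1. The remaining 8, Itga2, Itga7, Itga10, Itga11, Itgad, Itgae, Itgb7 and Lamc3, had their extremes elsewhere. The median SD of the 36 genes was 0.309 in TG DSS, 0.862 in WT DSS, 0.213 in TG water and 0.113 in WT water.

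**Figure D1:**
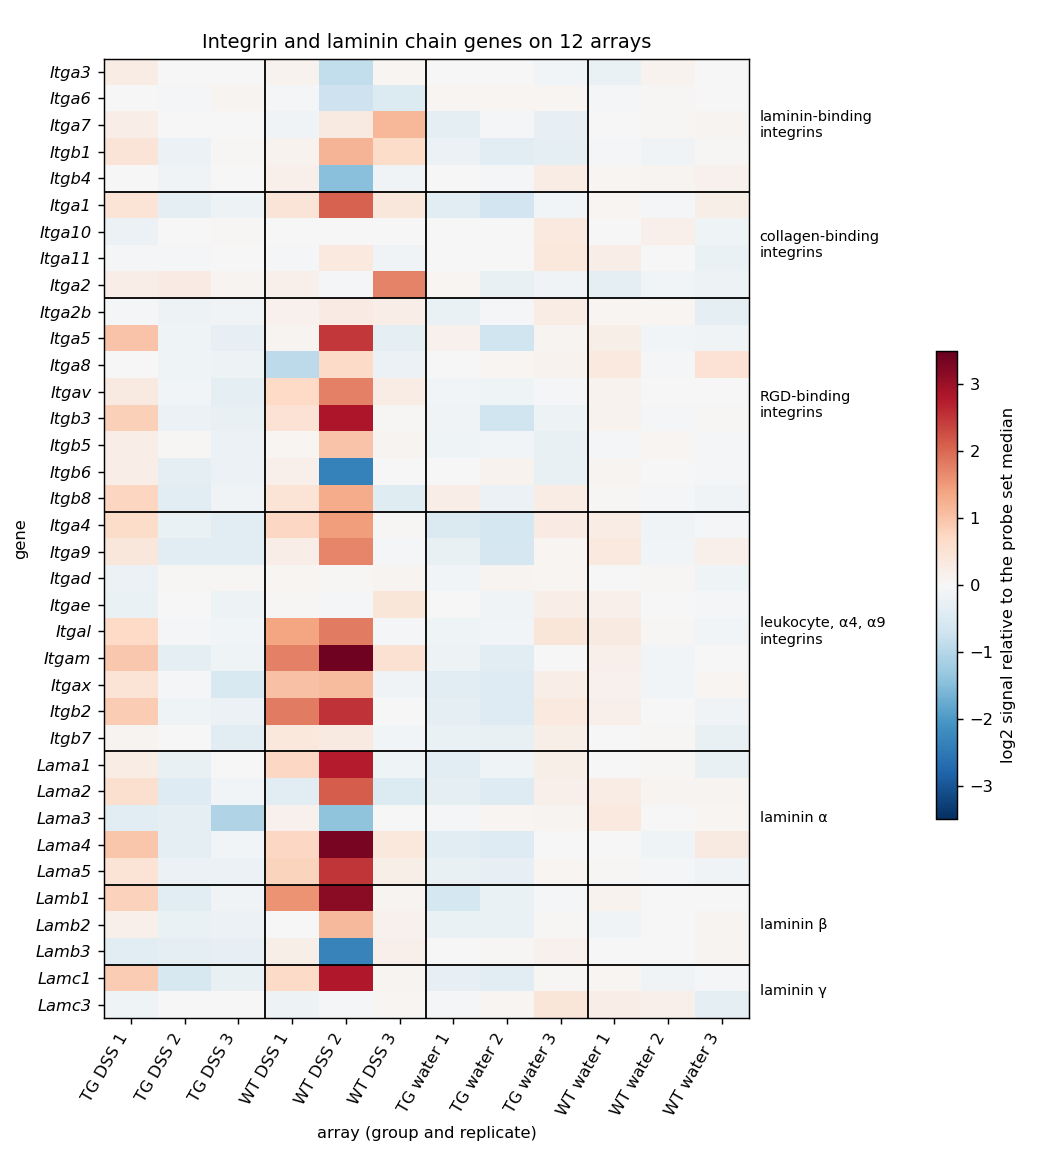
Log2 signal of the 36 integrin and laminin chain genes (rows, by role) on the 12 arrays (columns, by group and replicate), relative to the median of each probe set, in red above and blue below it. WT DSS replicate 2 holds the highest value of 22 genes and the lowest of 6, and the water arrays are pale throughout.

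The promoters of 4 genes are shown as examples from these sets. Itgam and Itgb1 were higher in all 3 WT DSS arrays than in any WT water array, and Itgb6 and Lamb3 were among the 6 genes at their lowest in WT DSS replicate 2. RefSeq promoters of GRCm38.p6, from 250 bases before to 50 after a start site, were found for 23 of the 36 genes, and for Itgb6 and Lamb3 the upstream of the 2 listed starts is shown. Itgam lies at chr7:128062390-128062689 on the plus strand, Itgb1 at chr8:128685404-128685703 on the plus strand, Itgb6 at chr2:60722554-60722853 on the minus strand and Lamb3 at chr1:193301744-193302043 on the plus strand. Capitals mark GGGCGG, the core bound by Sp1, on either strand.
Itgam: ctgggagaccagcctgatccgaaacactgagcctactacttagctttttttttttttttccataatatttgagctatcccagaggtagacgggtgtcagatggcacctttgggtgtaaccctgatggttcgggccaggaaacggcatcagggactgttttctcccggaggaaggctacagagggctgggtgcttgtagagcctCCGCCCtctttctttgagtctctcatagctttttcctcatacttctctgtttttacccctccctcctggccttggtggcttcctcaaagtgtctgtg
Itgb1: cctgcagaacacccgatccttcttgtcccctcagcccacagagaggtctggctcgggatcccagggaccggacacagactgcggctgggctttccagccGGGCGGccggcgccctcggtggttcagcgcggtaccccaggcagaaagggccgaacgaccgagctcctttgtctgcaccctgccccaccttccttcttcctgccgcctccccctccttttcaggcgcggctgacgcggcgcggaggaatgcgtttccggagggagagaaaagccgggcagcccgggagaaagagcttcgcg
Itgb6: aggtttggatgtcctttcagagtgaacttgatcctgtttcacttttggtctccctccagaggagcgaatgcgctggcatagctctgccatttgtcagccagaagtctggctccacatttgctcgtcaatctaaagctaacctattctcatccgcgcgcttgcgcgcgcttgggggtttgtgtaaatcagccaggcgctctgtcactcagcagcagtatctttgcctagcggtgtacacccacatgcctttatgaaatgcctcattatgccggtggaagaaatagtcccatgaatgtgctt
Lamb3: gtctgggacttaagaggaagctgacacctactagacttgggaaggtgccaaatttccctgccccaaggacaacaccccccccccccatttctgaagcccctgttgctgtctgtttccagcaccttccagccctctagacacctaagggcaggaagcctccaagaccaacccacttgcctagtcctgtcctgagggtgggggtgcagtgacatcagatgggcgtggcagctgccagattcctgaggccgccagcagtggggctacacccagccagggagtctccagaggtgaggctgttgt
The windows of Itgam and Itgb1 each held 1 match of GGGCGG and the Itgb6 and Lamb3 windows none. Beyond these examples the motif did not separate the sets. Itga3, among the 6 genes at their lowest, held 3 matches at 1 start and 1 at its other. Itga1, Itga2b, Itga8, Itga9, Itgax, Itgb8 and Lamb2, among the 22 at their highest, held no match. Of all 32851 RefSeq promoters 35.7% held this motif. Of the 23 genes, which have 26 promoters, 11 held it in at least 1 promoter. For every motif here the shares of all are per promoter and those of the 23 per gene, so they differ in unit. The window of 300 bases was also searched on both strands for TATAAA, the TATA box, GAGGAAGT, bound by PU.1 in leukocytes, and TGANTCA, bound by AP-1, each motif counted separately whether or not it overlapped another. None of these 3 is in the windows shown. TATAAA was found in 13.6% of all promoters and in 0 of the 23 genes, GAGGAAGT in 3.2% of all and in Itga11, Itgav, Itgb6 at its other start and Itgb7, and TGANTCA in 7.81% of all and in Itga3, Itga9 and Itgax. A match describes letters and is not evidence of binding.

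The first comparison set DSS against water in WT mice. In limma, none of the 36 genes passed an adjusted p under 0.05 over all 19935 genes, where 0.171% of all genes passed. At an unadjusted p under 0.05 there were 9 of 36, or 25%, against 15.2% of all genes. The differences ran from -0.73 to 1.88 on the log2 scale, with a median of 0.46 against -0.04 for all genes. Of the 36, 27 lay above 0, or 75%, against 40.6% of all genes, and 8 lay more than 1 unit above 0, against 2.97% of all genes. All 3 WT DSS arrays lay above all 3 WT water arrays for 10 of the 36, against 5.45% of all genes, and below them for 1, Itga6, against 10.7%. The other 25 overlapped, and groups without overlap made up 16.1% of all genes. In these bulk samples a change in the share of a cell type and a change of RNA per cell cannot be told apart.

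Of the 5 laminin-binding integrin chains, 3 stood below 0 and 2 above. Itga6 read -0.07, -0.72 and -0.47 in WT DSS and -0.05, 0.04 and 0.01 in WT water. It was low in replicates 2 and 3 and close to the water arrays in replicate 1. The difference was -0.42 ± 0.14 (± SE, 3 arrays in each group unless an array is said to be left out; limma adjusted p = 0.201), or 1.34-fold lower in WT DSS. Without WT DSS replicate 1 it was -0.60 ± 0.09 and passed (limma adjusted p = 0.00828), as did 919 of 19935 genes. Without replicate 2 it was -0.27 ± 0.11 and without replicate 3 -0.39 ± 0.16, and neither passed (limma adjusted p = 0.3365 and 0.173). Its hemidesmosome partner Itgb4 read 0.18, -1.47 and -0.12 in WT DSS and 0.06, 0.10 and 0.14 in WT water, so only replicate 2 stood well below. The difference of Itgb4 was -0.57 ± 0.33 (limma adjusted p = 0.445). Itga3, which pairs with the Itgb1 product at the basal surface, read 0.13, -0.85 and 0.06 in WT DSS and -0.24, 0.14 and -0.02 in WT water.

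Itgb1, the β chain shared by most matrix receptors, stood on the other side of 0. It read 0.13, 1.18 and 0.65 in WT DSS and -0.03, -0.12 and 0.03 in WT water, and the groups did not overlap. The difference was 0.70 ± 0.24 (limma adjusted p = 0.216), and 0.96 ± 0.20 without WT DSS replicate 1. In that fit Itgb1 passed (limma adjusted p = 0.0301), as did 919 of 19935 genes. Without WT DSS replicate 2 the difference was 0.44 ± 0.19 (limma adjusted p = 0.378). Itga7, best known as the laminin receptor of muscle, read -0.13, 0.31 and 1.17 in WT DSS and 0.00, 0.04 and 0.10 in WT water, with its high value in replicate 3. The smooth muscle markers had medians of -0.97, 0.65 and 0.13 in WT DSS and 0.23, 0.00 and 0.25 in WT water, with 10 of 13 below 0 in the difference, and their part in the Itga7 values was not tested.

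Among the collagen receptors, Itga2 and Itga1 were high in different arrays. Itga2, an epithelial and platelet receptor for collagen, read 0.17, -0.06 and 1.74 in WT DSS and -0.31, -0.09 and -0.17 in WT water, and replicate 3 alone was far above the rest. Its difference was 0.81 ± 0.37 (limma adjusted p = 0.337), and 0.25 ± 0.13 without replicate 3 (limma adjusted p = 0.292). Itga1, which is prominent on mesenchymal cells and tissue T cells, read 0.45, 2.05 and 0.40 in WT DSS and 0.07, -0.07 and 0.20 in WT water. Its highest value was in replicate 2, and its difference was 0.90 ± 0.40 (limma adjusted p = 0.316). Both genes stood above all WT water arrays in all 3 WT DSS arrays. Itga10 and Itga11, collagen receptors of cartilage and of fibroblasts, differed by -0.02 ± 0.12 and 0.05 ± 0.16.

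Of the 8 RGD-binding chains, which bind fibronectin, vitronectin, fibrinogen and latent TGF-β, 6 stood above 0 and 2, Itgb6 and Itga8, below. Itgav, the α chain common to the vitronectin and TGF-β receptors, read 0.71, 1.77 and 0.25 in WT DSS and 0.13, -0.01 and 0.01 in WT water, with no overlap. Its difference was 0.86 ± 0.31 (limma adjusted p = 0.238), or 1.82-fold higher. Its epithelial partner Itgb6 read 0.18, -2.35 and 0.01 in WT DSS and 0.10, -0.01 and -0.06 in WT water. Replicates 1 and 3 lay beside the water arrays and replicate 2 more than 2 log2 units under them. The difference of Itgb6 was -0.73 ± 0.53 (95% interval -1.92 to 0.45; limma adjusted p = 0.55), and without replicate 2 it was 0.08 ± 0.17.

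The other β partners of Itgav were higher in the same array. Itgb3, a chain of platelets, vessels and osteoclasts, read 0.49, 2.83 and 0.03 in WT DSS and 0.13, -0.03 and 0.03 in WT water. Itgb5, a widespread vitronectin receptor chain, read 0.08, 0.99 and 0.08 and Itgb8, which also frees TGF-β, 0.48, 1.29 and -0.42 in WT DSS, against -0.06 to 0.05 and -0.13 to 0.05 in WT water. Itga5, the fibronectin receptor chain, read 0.11, 2.48 and -0.34 in WT DSS and 0.19, -0.11 and -0.12 in WT water, so that its difference of 0.76 ± 0.64 (limma adjusted p = 0.615) rested on replicate 2 and was -0.10 ± 0.38 without it. Itga8, a chain of mesenchymal cells and smooth muscle, read -0.91, 0.67 and -0.20 in WT DSS and 0.34, -0.04 and 0.51 in WT water. It was lowest in replicate 1, where the smooth muscle markers were lowest too.

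Itga2b, the platelet fibrinogen receptor chain, was an exception among the 36. It read -0.06, -0.18 and -0.13 in TG DSS, 0.16, 0.29 and 0.23 in WT DSS, -0.24, -0.08 and 0.25 in TG water and 0.06, 0.08 and -0.31 in WT water. Its WT DSS values were close together and above those of TG DSS and WT water, which held for 2.12% of all genes in this direction, whereas TG water replicate 3 lay above 2 of them. The opposite order, below TG DSS and WT water, held among the 36 for Itga6 alone, against 6.37% of all genes. The differences were small, 0.29 ± 0.14 for DSS minus water in WT and -0.35 ± 0.14 for TG minus WT under DSS (limma adjusted p = 0.36 and 0.268). The median of 8 platelet and megakaryocyte markers, of which Itga2b is 1 and 7 lay above 0 in the difference, was 0.07, 0.78 and 0.01 in WT DSS and 0.17, 0.04 and -0.15 in WT water.

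The chains typical of leukocytes include Itgam, the gene furthest above 0 of the 36. All 9 of this group, which includes Itga4 and Itga9, stood above 0, and their median difference was 0.63. Itgam, the α chain of the complement receptor on neutrophils and macrophages, read 1.77, 3.41 and 0.54 in WT DSS and 0.17, -0.09 and -0.01 in WT water. Every WT DSS array was above every WT water array, and replicate 3 was the nearest to them. The difference was 1.88 ± 0.59 (95% interval 0.57 to 3.20; limma adjusted p = 0.185), or 3.69-fold higher. Its partner Itgb2 read 1.81, 2.53 and 0.02 in WT DSS and 0.18, -0.02 and -0.12 in WT water. Itgal, the lymphocyte and myeloid partner of Itgb2 that binds ICAM-1, read 1.39, 1.81 and -0.04 in WT DSS and 0.31, 0.04 and -0.09 in WT water. For both genes replicates 1 and 2 were high and replicate 3 lay within the water arrays.

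Leaving out WT DSS replicate 3, the array nearest to water for these genes, gave Itgam 2.57 ± 0.47, Itgb2 2.16 ± 0.36 and Itgal 1.52 ± 0.27. All 3 then passed (limma adjusted p = 0.0297, 0.0242 and 0.028), and in that fit 4 of the 36 and 575 of 19935 genes passed. Leaving out replicate 2 gave 1.13 ± 0.40, 0.90 ± 0.49 and 0.59 ± 0.39 and none of the 36 passed (lowest limma adjusted p of the 36 genes = 0.111), against 92 of 19935 genes. Markers of the cells that carry these chains were high in the same arrays. The neutrophil markers had medians of 2.16, 3.90 and 0.34 in WT DSS and 0.01, -0.03 and -0.25 in WT water, with 14 of 16 genes above 0 in the difference. The macrophage and monocyte markers had 1.24, 2.39 and -0.11 in WT DSS and 0.18, 0.01 and -0.06 in WT water, with 15 of 16 above 0. The part of these cells in the integrin values was not tested.

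Of the T cell chains, Itgae was above all WT water arrays in WT DSS replicate 3 alone and Itgb7 in replicates 1 and 2. Itgae read 0.03, -0.03 and 0.44 in WT DSS and 0.17, 0.01 and -0.04 in WT water, and was highest in replicate 3. Itgb7 read 0.38, 0.32 and -0.10 in WT DSS and 0.00, 0.05 and -0.27 in WT water. Their differences were 0.10 ± 0.14 and 0.27 ± 0.19 (limma adjusted p = 0.792 and 0.514). The T and NK cell markers had medians of 0.16, 0.20 and 0.45 in WT DSS and 0.06, 0.00 and -0.19 in WT water, also highest in replicate 3, with 16 of 16 above 0 in the difference. The B and plasma cell markers had 0.83, -0.05 and -0.51 in WT DSS and 0.24, 0.01 and 0.00 in WT water, with 6 of 11 above 0. The part of these cells was not tested. Itgax, the dendritic cell partner of Itgb2, read 1.01, 1.11 and -0.13 in WT DSS, whereas Itgad differed by 0.12 ± 0.09, with its 2 probe sets reading 0.17 to 0.31 and -0.25 to 0.01 in the WT DSS arrays. Itga4, the homing receptor chain that pairs with the Itgb1 or Itgb7 product, read 0.73, 1.47 and 0.05 and Itga9, which binds tenascin-C, 0.24, 1.70 and -0.06 in WT DSS.

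**Figure D2:**
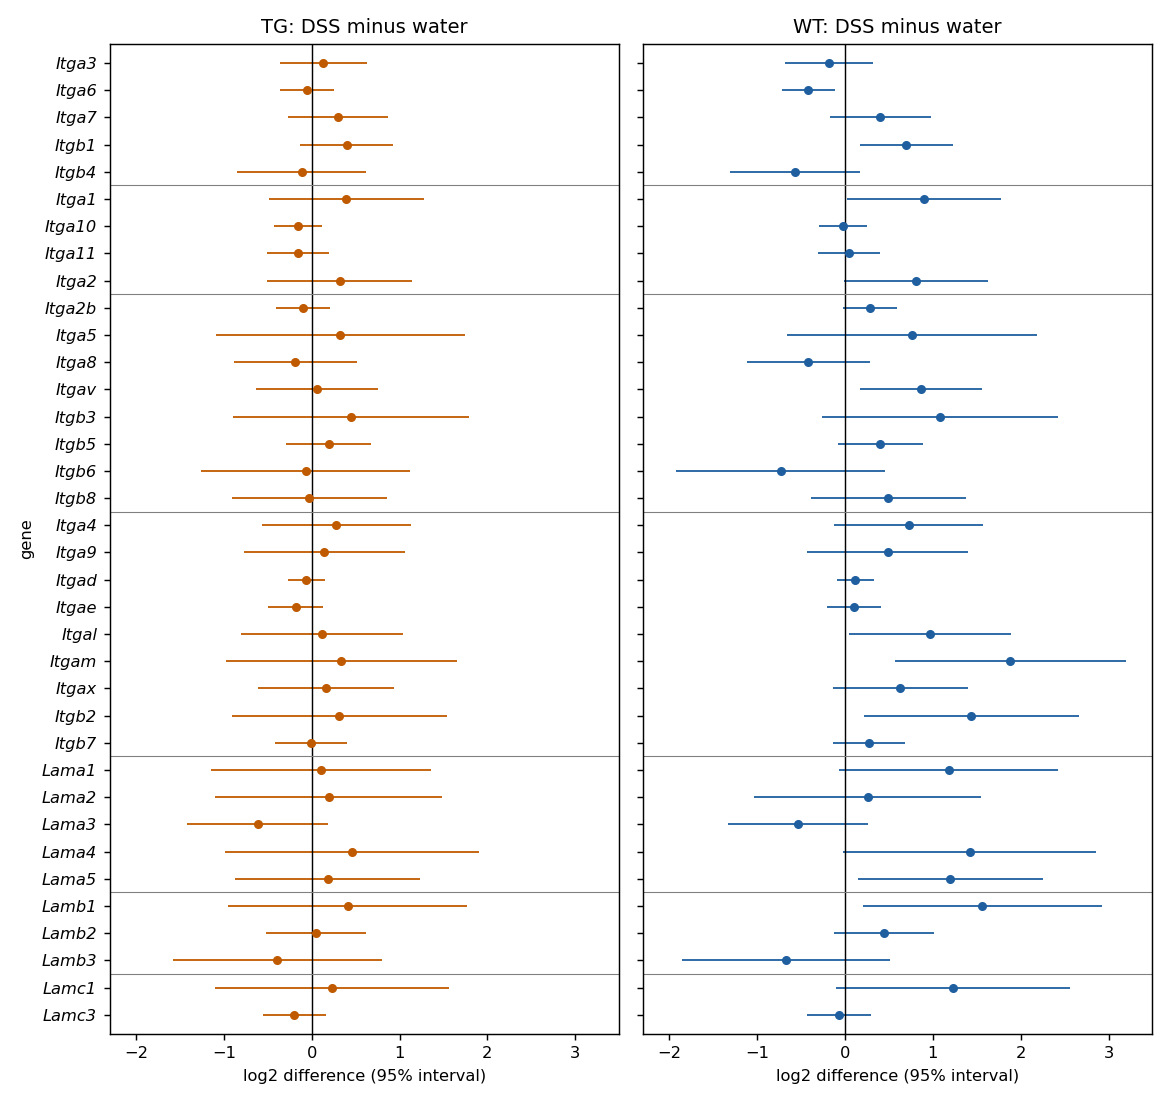
Log2 difference of DSS minus water for each of the 36 genes, with the 95% interval of the limma fit, in TG mice (left) and WT mice (right), n = 3 arrays per group. In WT the points run from -0.73 to 1.88 with the leukocyte chain Itgam highest, and in TG from -0.62 to 0.46.

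Laminin chains of general basement membranes stood above 0 in WT under DSS, again most in replicate 2, though none passed with all arrays. Lamb1 read 1.56, 3.16 and 0.10 in WT DSS and 0.14, 0.01 and -0.01 in WT water, and replicate 3 just overlapped the water arrays. The difference was 1.56 ± 0.61 (limma adjusted p = 0.273), or 2.95-fold higher, and 2.31 ± 0.45 without replicate 3. In that fit Lamb1 passed (limma adjusted p = 0.0362), as did 575 of 19935 genes. Without replicate 2 the difference was 0.79 ± 0.42 (limma adjusted p = 0.487). Lama5, the main α chain beneath colon epithelium, read 0.77, 2.51 and 0.20 in WT DSS and 0.05, -0.05 and -0.12 in WT water, with no overlap and a difference of 1.20 ± 0.47 (limma adjusted p = 0.275). Lamc1 read 0.67, 2.81 and 0.10 in WT DSS and 0.06, -0.12 and -0.04 in WT water, and Lama4 read 0.73, 3.31 and 0.37 in WT DSS and 0.01, -0.15 and 0.31 in WT water. Neither overlapped, and their differences were 1.23 ± 0.60 and 1.42 ± 0.65 (limma adjusted p = 0.363 and 0.337).

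The other laminin chains differed in pattern. Lama1, an α chain best known from embryonic basement membranes, read 0.71, 2.74 and -0.15 and Lama2, the α chain of muscle and nerve, -0.40, 2.12 and -0.48 in WT DSS. Both were high in replicate 2, Lama1 also in replicate 1, and neither exceeded the WT water arrays in replicate 3. Lamb2 read 0.00, 1.14 and 0.15 in WT DSS and -0.11, 0.00 and 0.09 in WT water, with a difference of 0.44 ± 0.26. Lamc3 read -0.17, -0.06 and 0.08 in WT DSS and 0.24, 0.17 and -0.34 in WT water, a difference of -0.07 ± 0.16. Markers of vessels and connective tissue were high in the same array. The endothelial markers, 15 of 15 above 0 in the difference, had medians of 0.64, 2.89 and -0.28 in WT DSS and -0.04, -0.23 and 0.18 in WT water, and the fibroblast markers, 14 of 15 above 0, 0.77, 2.26 and -0.15 in WT DSS and 0.13, 0.04 and 0.01 in WT water. The enteric glia and neuron markers, 10 of 11 above 0, had 0.14, 1.04 and 0.35 in WT DSS and 0.00, 0.11 and -0.01 in WT water. The part of these cells in the laminin values was not tested.

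Lama3 and Lamb3, chains of the epithelial anchor laminin, ran against the other laminins. Lama3 read 0.15, -1.41 and 0.03 in WT DSS and 0.34, -0.03 and 0.07 in WT water. Lamb3 read 0.22, -2.33 and 0.17 in WT DSS and -0.02, 0.02 and 0.09 in WT water. In replicate 2 both were far below the water arrays while the general chains were far above them. In replicates 1 and 3 Lamb3 was slightly above all water arrays. The differences were -0.54 ± 0.36 for Lama3 and -0.68 ± 0.53 for Lamb3 (limma adjusted p = 0.509 and 0.589), and without replicate 2 they were -0.04 ± 0.20 and 0.17 ± 0.08.

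**Figure D3:**
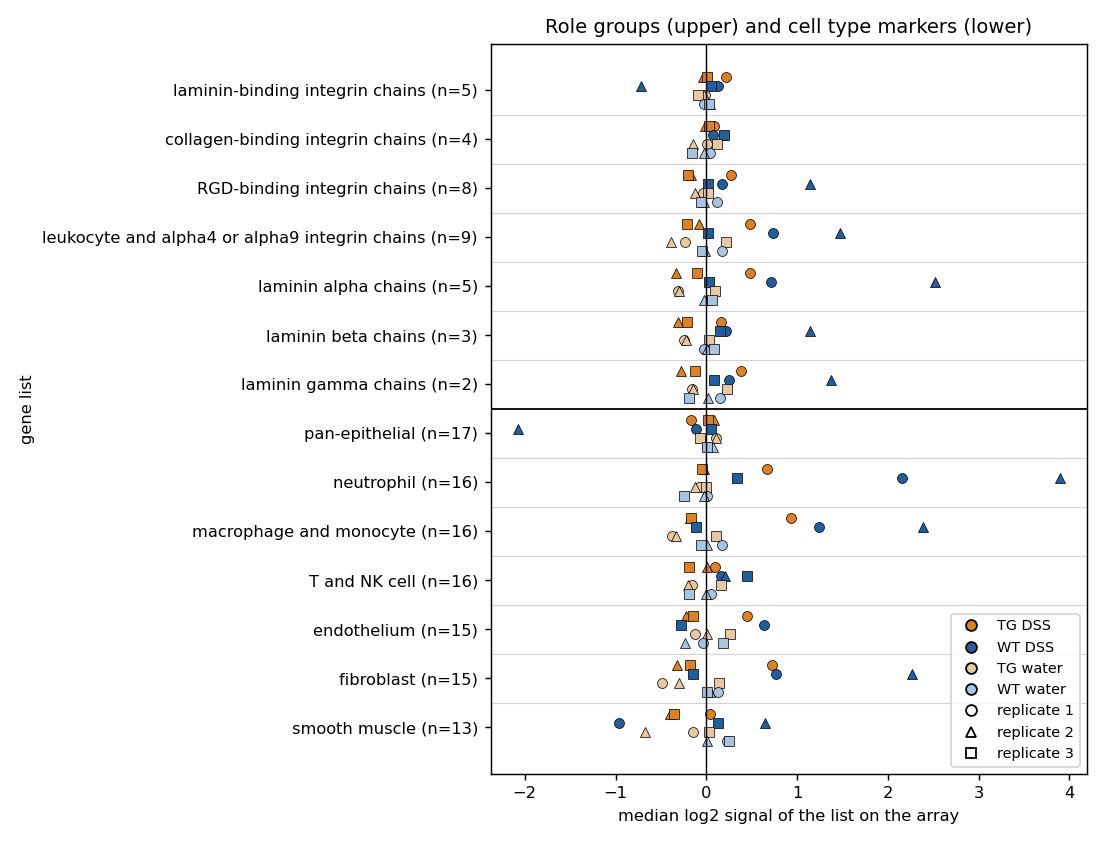
Median log2 signal of each role group of integrin and laminin chains (upper rows) and of each cell type marker list (lower rows) on every array, with colour for the group and shape for the replicate. WT DSS replicate 2 lies at -2.08 for pan-epithelial and 3.90 for neutrophil markers, and at -0.72 for laminin-binding integrin and 2.51 for laminin α chains.

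Without WT DSS replicate 2 the WT differences of the 36 genes ran from -0.83 to 1.15 with a median of 0.20, and 7 changed sign, namely Itga3, Itga5, Itga9, Itga11, Itgb6, Lama2 and Lamb3. None of the 36 passed in limma (lowest adjusted p = 0.111), where 92 of 19935 genes did. An unadjusted p under 0.05 was reached by 8 of the 36, against 2624 of 19935 genes. Itga2 was then the gene furthest above 0, a rank that rested on replicate 3, at 1.15 ± 0.34, beside Itgam at 1.13 ± 0.40, and Itga8 the furthest below, at -0.83 ± 0.20 (limma adjusted p = 0.175, 0.252 and 0.111). Itgav stood at 0.44 ± 0.18, Lama5 at 0.52 ± 0.23 and Itga6 at -0.27 ± 0.11.

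**Figure D4:**
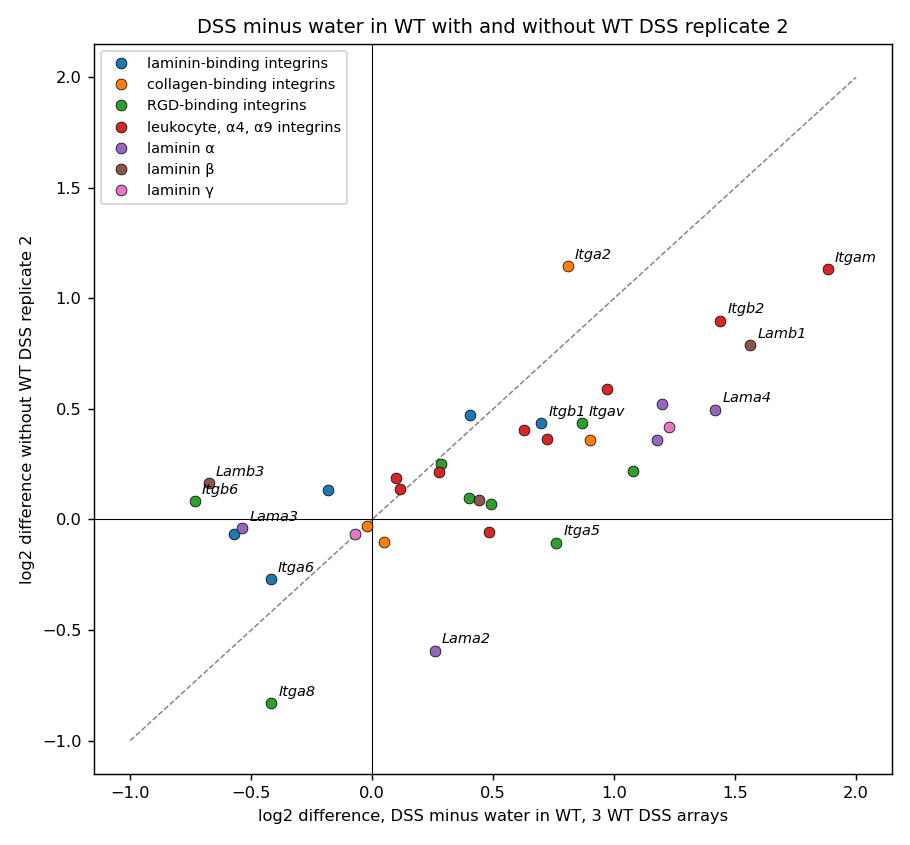
Log2 difference of DSS minus water in WT for the 36 genes with all 3 WT DSS arrays (horizontal) and without WT DSS replicate 2 (vertical), with the dashed line where both are equal. Of the 36 genes 7 change sign, and Itga2 lies above the line at 1.15 without that array against 0.81 with it.

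In TG mice the differences between DSS and water lay closer to 0. They ran from -0.62 to 0.46 with a median of 0.13 against -0.01 for all genes, and 0 of 36 lay more than 1 unit above 0, against 0.13% of all genes. No chain gene passed in limma (adjusted p = 1 after rounding for each), as 0.0% of all genes did. An unadjusted p under 0.05 was reached by 0 of 36, against 2.38% of all genes. The fit pools the spread of WT DSS, so these counts are no measure of a missing response. With the TG arrays fitted alone 5 of the 36 had an unadjusted p under 0.05, against 1126 of all 19935 genes, and none passed. Of the 36 genes 6, or 16.7%, had no overlap between the groups, near the 13.4% of all genes. Itga2, Itga3 and Itga7 were higher, against 6.76% of all genes in this direction, and Itga8, Lama3 and Lamb3 lower, against 6.64%.

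Lama3 and Lamb3, chains of the same trimer, were low in all 3 TG DSS arrays. Lamb3 read -0.37, -0.32 and -0.29 in TG DSS and -0.02, 0.05 and 0.16 in TG water, and the arrays of each group lay close together. Lama3 read -0.38, -0.33 and -1.04 in TG DSS and -0.05, 0.06 and 0.10 in TG water. The differences were -0.39 ± 0.53 and -0.62 ± 0.36 (limma adjusted p = 1 for both), where the SE of Lamb3 carries the spread of WT DSS. With WT DSS replicate 2 left out of the fit the difference of Lamb3 was -0.39 ± 0.07 (limma adjusted p = 0.91). The pan-epithelial markers in TG DSS stood at -0.17, 0.09 and 0.02, against 0.11, 0.10 and -0.07 in TG water. Of the hemidesmosome receptor, Itga6 read -0.01, -0.03 and 0.10 in TG DSS and 0.08, 0.06 and 0.07 in TG water, and Itgb4 0.00, -0.13 and 0.00 in TG DSS and -0.01, -0.03 and 0.26 in TG water.

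TG DSS replicate 1 stood above the other 2 arrays of its group in many of the remaining genes. Itgam read 0.95, -0.33 and -0.16 in TG DSS and -0.17, -0.38 and 0.01 in TG water, and Itgb2 0.88, -0.15 and -0.21 in TG DSS and -0.31, -0.45 and 0.34 in TG water. Itga5 read 1.00, -0.16 and -0.29, Lamc1 0.89, -0.56 and -0.25, Lama4 0.97, -0.33 and -0.10 and Lamb1 0.82, -0.36 and -0.12 in TG DSS. In all 6 replicate 1 was the high array. The macrophage and monocyte markers had medians of 0.93, -0.18 and -0.16 in TG DSS and -0.38, -0.33 and 0.11 in TG water, the neutrophil markers 0.67, -0.02 and -0.05 in TG DSS and -0.08, -0.12 and 0.00 in TG water, and the fibroblast markers 0.72, -0.32 and -0.18 in TG DSS and -0.48, -0.30 and 0.14 in TG water. Their part was not tested. Itgb1 read 0.45, -0.21 and 0.05 in TG DSS and -0.20, -0.40 and -0.31 in TG water, a difference of 0.40 ± 0.24, and Itgae -0.24, -0.01 and -0.17 in TG DSS and 0.02, -0.13 and 0.23 in TG water, a difference of -0.18 ± 0.14 (limma adjusted p = 1 for both).

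**Figure D5:**
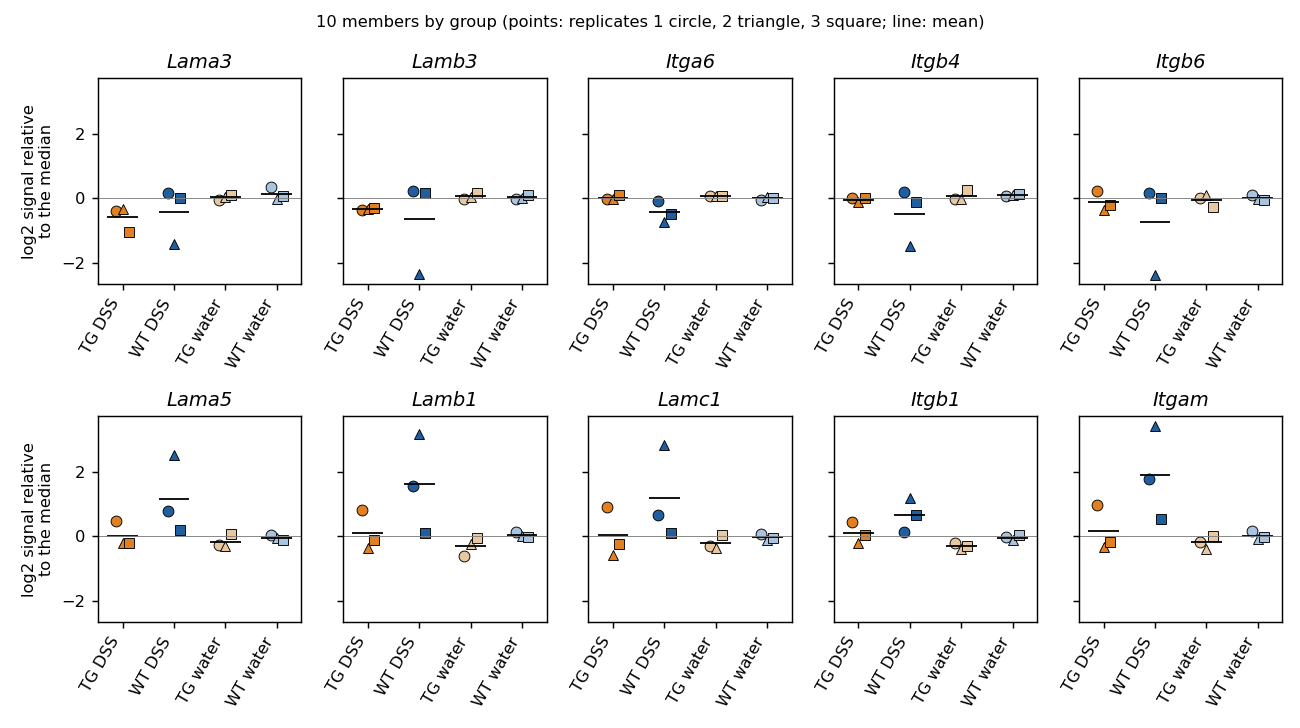
Log2 signal of 10 integrin and laminin chain genes in TG DSS, WT DSS, TG water and WT water, with a point per array (replicate 1 circle, 2 triangle, 3 square) and a line at the group mean. Lamb3 is low in all 3 TG DSS arrays, at -0.37 to -0.29, and in WT DSS replicate 2 alone, at -2.33, whereas Itga6 is low in WT DSS replicates 2 and 3 and close to 0 in TG DSS.

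Under DSS, TG was set against WT, a comparison that shares its WT DSS arrays with the first. In limma 0 of the 36 genes passed, against 0.0401% of all genes, and 9 had an unadjusted p under 0.05, or 25%, against 15.9% of all genes. The differences ran from -1.75 to 0.61 with a median of -0.42 against 0.04 for all genes, with 7 of 36 above 0, against 57.9% of all genes, and the other 29 below. More than 1 unit below 0 lay 7 of 36, against 2.88% of all genes, and more than 1 unit above 0 none, against 1.69%. Only 2 of 36 genes, or 5.56%, were free of overlap, against 19.0% of all genes. These were Itga6, which was higher in TG, against 14.1% of all genes in this direction, and Itga2b, which was lower, against 4.9%. Itga6 read -0.01, -0.03 and 0.10 in TG DSS and -0.07, -0.72 and -0.47 in WT DSS, a difference of 0.44 ± 0.14 (limma adjusted p = 0.183). Without WT DSS replicate 1, the array nearest to TG DSS, it was 0.62 ± 0.09 and passed (limma adjusted p = 0.00643), as did 1166 of 19935 genes. Without replicate 2 it was 0.29 ± 0.11 and without replicate 3 0.41 ± 0.16, and neither passed (limma adjusted p = 0.312 and 0.157).

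The genes highest in WT DSS were correspondingly lower in TG. Itgam read 0.95, -0.33 and -0.16 in TG DSS and 1.77, 3.41 and 0.54 in WT DSS, a difference of -1.75 ± 0.59 (limma adjusted p = 0.205). The groups overlapped, since TG DSS replicate 1 exceeded WT DSS replicate 3. Itgav read 0.30, -0.09 and -0.33 in TG DSS and 0.71, 1.77 and 0.25 in WT DSS, a difference of -0.95 ± 0.31 (limma adjusted p = 0.199), and overlapped by a small margin. Itgb1 differed by -0.56 ± 0.24, Lama5 by -1.14 ± 0.47, Lamb1 by -1.49 ± 0.61 and Itgb2 by -1.28 ± 0.55 (limma adjusted p = 0.292, 0.285, 0.283 and 0.297). Itgb1 passed at -0.82 ± 0.20 without WT DSS replicate 1, and Itgb2 at -2.00 ± 0.36 without replicate 3 (limma adjusted p = 0.0468 and 0.0457). In these fits 1166 and 164 of 19935 genes passed. Without replicate 2 Itgb1 stood at -0.30 ± 0.19, Itgb2 at -0.74 ± 0.49, Lama5 at -0.46 ± 0.23, Lamb1 at -0.72 ± 0.42, Itgav at -0.52 ± 0.18 and Itgam at -1.0 ± 0.40, and none passed.

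For Lamb3 the direction between genotypes under DSS depended on WT DSS replicate 2. It read -0.37, -0.32 and -0.29 in TG DSS and 0.22, -2.33 and 0.17 in WT DSS, a difference of 0.32 ± 0.53 (limma adjusted p = 0.811). Without that array it was -0.52 ± 0.08 (limma adjusted p = 0.0637), the lowest adjusted p of the 36 genes in that fit. Lama3 stood below 0 both ways, at -0.17 ± 0.36 with the array and at -0.67 ± 0.20 without it (limma adjusted p = 0.856 and 0.196), but at 0.11 ± 0.37 without WT DSS replicate 1, 0.05 ± 0.39 without replicate 3 and 0.058 without TG DSS replicate 3. Itgb4 stood at 0.43 ± 0.33 and at -0.07 ± 0.12 without it, and Itgb6 at 0.61 ± 0.53 and -0.20 ± 0.17.

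The interaction, that is the difference between DSS and water in TG less the same difference in WT, passed for no gene of the 36 (limma lowest adjusted p = 0.852; 0 of 36 with an unadjusted p under 0.05) and for 0.0% of all genes, and 5.85% of all had an unadjusted p under 0.05. More than 1 unit below 0 lay 5 of the 36 and 2.11% of all genes, and more than 1 unit above 0 none of the 36 and 1.7% of all genes. Itgam had the value furthest below 0, at -1.55 ± 0.83 (95% interval -3.40 to 0.31), and Itgb6 the value furthest above, at 0.66 ± 0.75 (95% interval -1.02 to 2.34). Without WT DSS replicate 2 the interaction changed sign for 9 of the 36 genes. It was then -0.79 ± 0.54 for Itgam, -0.15 ± 0.23 for Itgb6 and -0.56 ± 0.11 for Lamb3, which stood at 0.29 ± 0.75 with all arrays (limma adjusted p without the array = 0.885, 0.966 and 0.428).

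At water the differences between TG and WT were small in log2 units, but more of the 36 genes than of all genes lay below 0. No gene of the 36 passed in limma (adjusted p = 1 for each), 0 had an unadjusted p under 0.05, 0.0% of all genes passed and 0.306% had an unadjusted p under 0.05. With the water arrays fitted alone 5 of the 36 had an unadjusted p under 0.05, against 423 of all 19935 genes, and none passed. The differences ran from -0.46 to 0.14 with a median of -0.13 against 0.01 for all genes. Of the 36, 10 lay above 0, against 54.7% of all genes, and 0 more than 1 unit above 0, against 0.0251%. For 8 of 36, or 22.2%, the groups were free of overlap, against 4.98% of all genes. Itga1, Itga7, Itgav, Itgb1, Itgb3, Itgb5 and Lamb1 were lower in TG, against 3.05% of all genes in this direction, and Itga6 was higher, against 1.93%. With weights per array, Itga1, Itga4, Itga9 and Lama2 passed in limma at -0.79 to -0.63, as did 1971 of the 19935 genes.

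Itgb1 read -0.20, -0.40 and -0.31 in TG water and -0.03, -0.12 and 0.03 in WT water, a difference of -0.26 ± 0.24. Itga1 read -0.40, -0.67 and -0.11 in TG water and 0.07, -0.07 and 0.20 in WT water, a difference of -0.46 ± 0.40. Itga7 read -0.34, -0.07 and -0.29 in TG water and 0.00, 0.04 and 0.10 in WT water, a difference of -0.28 ± 0.26. Each is a chain of mesenchymal cells or muscle among others, and all 3 TG arrays were below all 3 WT arrays in each. The smooth muscle markers had medians of -0.15, -0.67 and 0.03 in TG water and 0.23, 0.00 and 0.25 in WT water, and the fibroblast markers -0.48, -0.30 and 0.14 in TG water and 0.13, 0.04 and 0.01 in WT water. In the difference 13 of 13 and 15 of 15 of these markers lay below 0. This was not particular to them, as 15 of 16 macrophage and monocyte markers and 8 of 11 enteric glia and neuron markers lay below 0 too. Of the neutrophil, T and NK cell and endothelial markers, 12 of 16, 9 of 16 and 9 of 15 lay above 0. The part of these cells was not tested. Itga6 read 0.08, 0.06 and 0.07 in TG water and -0.05, 0.04 and 0.01 in WT water, a difference of only 0.07 ± 0.14.

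Lists of wider adhesion genes were set beside the chains. None of these lists held a gene that passed in limma in WT under DSS. For the counts of these lists in WT, 40.6% of all genes lay above 0 and 15.2% had an unadjusted p under 0.05. The WT DSS arrays lay above all WT water arrays for 5.45% of all genes. Matrix ligands of integrins stood above 0 in 10 of 10 measured genes with a median of 0.89, and 5 had an unadjusted p under 0.05. Thbs1, a thrombospondin that binds integrins and activates latent TGF-β, read 1.95, 3.42 and 1.38 in WT DSS and 0.34, -0.43 and -0.09 in WT water, high in all 3 arrays, with a difference of 2.31 ± 0.48 (limma adjusted p = 0.0773). Tgfbi, a matrix protein induced by TGF-β, read 1.28, 2.29 and 1.03 in WT DSS and 0.12, -0.18 and -0.12 in WT water, also with no overlap (limma adjusted p = 0.13).

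Hemidesmosome and basement membrane genes outside the laminins had a median of 0.15, with 13 of 18 above 0. Agrn, the heparan sulfate proteoglycan agrin, read 0.56, 0.28 and 0.46 in WT DSS and -0.24, 0.07 and -0.13 in WT water, and was not led by replicate 2 (difference 0.54 ± 0.12; limma adjusted p = 0.0976). Hspg2, the proteoglycan perlecan, read 0.61, 2.17 and 0.35 in WT DSS and -0.05, 0.03 and -0.03 in WT water. Counter-receptors on cells had a median of 0.58, with 8 of 12 above 0. Icam1, the ligand of the Itgb2 receptors, read 1.57, 3.47 and -0.17 in WT DSS and 0.14, 0.03 and -0.16 in WT water, and the endothelial selectin Sele 0.82, 2.59 and -0.16 in WT DSS and 0.01, -0.01 and -0.15 in WT water. Both were high in replicates 1 and 2 and not in replicate 3, as Itgb2 and Itgal were.

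Genes of latent TGF-β and its handling had a median of 0.69, with 10 of 11 above 0. The exception was Smad7, an inhibitor of TGF-β signalling, which read -0.23, -0.30 and -0.21 in WT DSS and 0.19, 0.22 and 0.34 in WT water, even over the 3 arrays (difference -0.50 ± 0.12; limma adjusted p = 0.114). Tgfbr1, a TGF-β receptor, read 0.36, 1.46 and 0.40 in WT DSS and 0.06, -0.30 and 0.20 in WT water. Adaptors and activators inside the cell had a median of 0.08, with 17 of 27 above 0. Of these, Zyx, the focal adhesion protein zyxin, read 0.23, 1.61 and 0.29 in WT DSS and 0.02, -0.09 and -0.15 in WT water, and Tln1, the integrin activator talin, 0.29, 0.95 and 0.23 in WT DSS and -0.05, 0.03 and -0.03 in WT water, both without overlap (limma adjusted p = 0.274 and 0.281).

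In TG under DSS the medians of the 5 wider lists, in the order matrix ligands, basement membrane, counter-receptors, TGF-β handling and adaptors, were 0.28, -0.05, 0.10, 0.12 and 0.03, with no gene passing in limma. An unadjusted p under 0.05 was reached by 1 gene, among the 11 of the TGF-β list, against 2.38% of all genes. Thbs1 read 1.10, -0.10 and 0.01 in TG DSS and -0.01, -0.07 and -0.25 in TG water, and Agrn -0.09, 0.09 and 0.00 in TG DSS and -0.08, 0.00 and -0.34 in TG water. Thbs1 was high in TG DSS replicate 1 alone, and Agrn was within 0.1 of its median in all 3 TG DSS arrays.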

How the data were processed

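RNA of 12 samples was measured on Affymetrix mouse gene arrays. The deposited values are log2 signals that the authors summarised with RMA in Affymetrix Expression Console, per the submitters' processing notes, which name no version. The base of the logarithm was taken from RMA's usual output. The values as deposited are centred per probe set (largest absolute median over the arrays 5e-07), so signal over background cannot be judged.

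Of 28815 probe sets, 21780 have 1 gene symbol in the platform annotation, 1605 several and 5430 none. Probe sets with 1 symbol were averaged per gene, and 3 probe sets named for both Rpl35 and Itgam were left out. All 36 chain genes matched RefSeq (GRCm38.p6), which also gave the promoters. No column was left unmapped. The linear model held a mean for each of the 4 groups over the 12 arrays (limma 3.58.1 under R 4.3.3, 8 residual degrees of freedom, eBayes without trend, two-sided), for 5 comparisons, with Benjamini-Hochberg adjustment over 19935 genes and a threshold of 0.05. The step was tested on simulated data that gave each gene the same spread in all groups. It therefore does not test the fit under the unequal spread of these arrays. Other tools were Python 3.11.15, pandas 2.3.3, numpy 2.4.6 and matplotlib 3.10.9. The number of arrays limits the precision.

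Array values are given for the 2 chain genes of each role group with the smallest p for DSS against water in WT, the 3 with the smallest p in TG under DSS, in TG against WT at water and in TG against WT under DSS, any that pass, a fixed set of main receptors and laminins, and, for each wider list, the 2 genes with the smallest p in WT. Others that are named were picked after their values were seen. The 36 genes, the role, wider and marker lists and these rules were chosen with earlier results of these data known. The alternatives were other sets of arrays in the fit, a replicate block, other treatment of probe sets, centring of arrays, another variance model and array weights. A filter on dim probe sets was not run, since centred values hold no level.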

Additional observations from a re-analysis of the deposited data

How the results depend on the processing

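In DSS against water in WT, 34 genes passed (limma, adjusted p under 0.05). With only the 2 groups compared 0 passed (1545 had an unadjusted p under 0.05), with each probe set on its own 105, with trend and robust eBayes 2, with weights per array 754, with weights per group 0, and with WT DSS replicates 2 and 3 left out together 158, where WT DSS replicate 1 is assumed to vary like the other groups. In TG against WT under DSS, 8 genes passed, and these settings gave 0, 6, 0, 273, 0 and 56, with 4 after centring each array on its median. Weights per array gave 4 genes for DSS in TG, 1971 for TG against WT at water and 12 for the interaction, and leaving out both arrays gave 22 for the interaction, where 0 passed with all arrays weighted equally. With the replicate block 0 genes passed in DSS against water in WT (2748 with an unadjusted p under 0.05) and 0 in TG against WT under DSS (2826 with an unadjusted p under 0.05). Of 18 pairs of arrays with the same replicate number, 1 had deviations correlated above 0.1 (r = -0.484 to 0.377), namely replicate 3 of TG DSS and WT DSS. With 3 arrays in a group the deviations are tied to one another, so whether arrays of 1 number belong together cannot be told from them. Leaving out 1 array at a time gave 0 to 919 genes for DSS in WT, 0 to 1166 for TG against WT under DSS, 0 to 239 for the interaction and 0 in both other comparisons; the counts of 164 and more arose without WT DSS replicate 1 or 3, and without any single water array 0 to 3 passed in DSS against water in WT.

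Of the 36 chain genes 0 passed in any comparison. Weights per array gave 2 in WT under DSS, Itgam at 1.48 and Itga8 at -0.97, and 4 in TG against WT at water, Itga1, Itga4, Itga9 and Lama2 at -0.79 to -0.63. Leaving out WT DSS replicates 2 and 3 gave 1, Itga8 at -1.18. Without 1 array, 0 to 4 passed in WT under DSS and 0 to 2 in TG against WT under DSS, in each case without WT DSS replicate 1 or 3. The cause of these changes was not tested.

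Some differences changed sign. Weights per array gave, for DSS in WT, Itga3 0.24, Itgae -0.025 and Lamb3 0.064, for DSS in TG Itgav -0.0076 and Itgb7 0.074, and for TG against WT under DSS Itga3 -0.0034, Itgb4 -0.069, Itgb6 -0.18 and Lamb3 -0.36. Leaving out WT DSS replicates 2 and 3 gave, for DSS in WT, Itga3 0.17, Itga7 -0.18, Itgae -0.012, Itgb4 0.081, Itgb6 0.17, Lama3 0.026 and Lamb3 0.19, and for TG against WT under DSS Itga2 0.031, Itga3 -0.034, Itga5 0.078, Itga7 0.20, Itgb4 -0.22, Itgb6 -0.29 and Lamb3 -0.54. Centring the arrays gave Itgb7 0.0051 for DSS in TG and Lamc3 -0.028 for TG against WT under DSS. Leaving out 1 array at a time gave ranges across 0, for DSS in WT of Itga3 -0.36 to 0.13, Itga5 -0.10 to 1.31, Itgae -0.044 to 0.19, Itgb6 -1.18 to 0.081, Lamb3 -1.11 to 0.17 and Lamc3 -0.25 to 0.036, for DSS in TG of Itga2b -0.21 to 0.036, Itga5 -0.083 to 0.56, Itgal -0.14 to 0.30, Itgam -0.063 to 0.58, Itgav -0.11 to 0.21, Itgb2 -0.041 to 0.55, Itgb6 -0.24 to 0.051, Itgb7 -0.11 to 0.15, Lama5 -0.052 to 0.30, Lamb2 -0.081 to 0.14 and Lamc1 -0.20 to 0.53, and for TG against WT under DSS of Itga2 -0.75 to 0.15, Itga5 -1.11 to 0.30, Itgb4 -0.075 to 0.75, Itgb6 -0.20 to 1.06, Lama3 -0.67 to 0.11, Lamb3 -0.52 to 0.75 and Lamc3 -0.056 to 0.068. The other chain genes chosen by the rule for named genes kept their sign in these 3 comparisons under every alternative run.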
